A study of Mus musculus with 12 samples.

Results

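The oviduct lines its lumen with an epithelium that moves chloride and bicarbonate into the fluid around sperm, eggs and early embryos. Expression of 8 genes that make or move these ions was followed over the mouse estrous cycle: the carbonic anhydrases Car2, Car4 and Car12, the anion exchangers and transporters Slc26a4, Slc26a6, Slc26a9 and Slc4a2, and the chloride channel Cftr. They were taken by symbol, as every probe annotated to one of these genes, and the symbols were chosen with earlier results of these data known. They account for 8 of the 16593 genes and 12 of the 25697 probes on the array. Of the 12 probes, 8 were detected on at least 3 of the 12 arrays, 1 for each gene, so all 8 genes were among the 10144 tested. Car2 had a second probe that was detected on 0 arrays, and 3 of the 4 Slc26a9 probes were detected on at most 1 array.

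The tissue was whole oviduct from ICR mice, an outbred stock, aged 6 weeks and not described as treated or genetically altered. Oviducts were collected at proestrus, the stage before ovulation, at estrus, around ovulation, and at metestrus and diestrus, which follow it. Total RNA of each stage was measured on 3 arrays of a 1-colour Illumina bead design, in which the brightness of a probe's beads reports its transcript. All values are log2 of the background-corrected and normalized intensity plus 16, spreads are SDs over n = 3 arrays, and differences carry the standard error of a limma fit to all 12 arrays. The labels do not say whether the 3 replicates of a stage were separate animals, pools or repeated hybridisations, so every p-value measures only the spread between these arrays. In whole tissue, fewer cells of a type and less RNA per cell cannot be told apart.

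Carbonic anhydrases interconvert carbon dioxide and bicarbonate. Car2 works in the cytosol, whereas Car4 and Car12 are held at the cell surface with the catalytic site outside. Slc4a2 exchanges chloride for bicarbonate and in most epithelia sits on the basolateral side. Slc26a4 (pendrin) and Slc26a6 exchange anions at the apical membrane, Slc26a9 carries chloride, and Cftr is a cyclic AMP-regulated channel that passes chloride and bicarbonate. In the female tract, bicarbonate activates the soluble adenylyl cyclase of sperm, a step of capacitation.

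The 4 arrays of replicate 1 formed a set of their own. Their median raw intensity was 139 to 156 and 55.6% to 58.1% of probes were detected, against 99.3 to 105 and 48.6% to 51.8% on the 8 arrays of replicates 2 and 3. In each stage Car12 and Slc4a2 read lowest on replicate 1 and Cftr read highest there, so values within one replicate number are given beside the pooled ones. Secretory cell markers (4 of 4 tested, Ovgp1 and Pax8 among them) and ciliated cell markers (9 of 9) were detected on all 12 arrays. Of the secretory list, Fut9 was detected on 0 arrays. No gene of either list passed the moderated F test across the cycle (limma), where 1 secretory and 0 ciliated markers had an unadjusted p under 0.05.

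Across the 4 stages, 2 of the 8 genes changed, Car12 and Slc26a4, by a moderated F test adjusted over all genes at 0.05 (limma). That call was made for 5.37% of all genes tested. The promoters of these 2 genes are shown because they are the ones that changed. Each is the 250 bases before a RefSeq transcript start (GRCm38.p6), read 5′ to 3′ on the gene's strand, with matches to the searched motifs in capitals. The Car12 window is chr9:66713436-66713685 on the plus strand and that of Slc26a4 is chr12:31559985-31560234 on the minus strand.
Car12: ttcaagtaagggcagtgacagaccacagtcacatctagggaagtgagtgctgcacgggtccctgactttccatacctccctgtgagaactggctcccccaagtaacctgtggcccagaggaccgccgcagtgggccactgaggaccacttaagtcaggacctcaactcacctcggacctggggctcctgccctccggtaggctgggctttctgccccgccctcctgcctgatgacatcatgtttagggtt
Slc26a4: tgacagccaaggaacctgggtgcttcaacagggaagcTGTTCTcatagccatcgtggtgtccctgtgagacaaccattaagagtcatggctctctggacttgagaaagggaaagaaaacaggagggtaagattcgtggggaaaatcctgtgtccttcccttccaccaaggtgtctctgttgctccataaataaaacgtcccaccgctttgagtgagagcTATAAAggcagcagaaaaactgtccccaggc
RefSeq's extent of both genes reaches past the start used here, so each has a further annotated start that was not examined.

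The Slc26a4 promoter held 1 TATA box, TATAAA on the sense strand, 31 to 26 bases before the start. It also held TGTTCT, the reverse complement of the progesterone and glucocorticoid receptor half-site AGAACA, 213 to 208 bases before the start. TATAAA occurs in 7.6% of the 32851 promoter windows of this length, and AGAACA on either strand in 16.1%. The Car12 window held none of the motifs searched. Besides those above, these were the estrogen response element half-site GGTCA (35.2% of windows, both strands), the palindromic estrogen response element (0.1%), the forkhead site TGTTTAC (3.2%) and the CRE core TGACGTCA (1.5%). GC content was 59.2% with 6 CpG dinucleotides for Car12 and 49.6% with 4 for Slc26a4, against medians of 52.4% and 6 over all windows. RefSeq promoter entries were matched for 7 of the 8 genes, Slc4a2 with a pair of starts and Car2 with none. The half-site GGTCA, or TGACC on the other strand, was present for Car4, Slc26a9 and the second Slc4a2 start. Slc26a9 also held TATAAA on the sense strand, 28 to 23 bases before its start. A match describes these letters only, and no binding was measured.

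Car12 was highest at proestrus and lowest after estrus. Its log2 intensity on replicates 1, 2 and 3 was 8.97, 9.41 and 9.45 at proestrus and 8.35, 8.76 and 8.84 at estrus. At metestrus it was 6.60, 7.63 and 7.33, and at diestrus 6.67, 7.40 and 7.65. All 6 arrays of proestrus and estrus lay above all 6 of metestrus and diestrus, and the proestrus arrays lay above the estrus arrays. The stage means were 9.28 ± 0.27, 8.65 ± 0.26, 7.19 ± 0.53 and 7.24 ± 0.51 in the order of the cycle (moderated F, limma, adjusted p = 0.0018). The spread was wider in the last 2 stages, where replicate 1 read lowest.

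**Figure D1:**
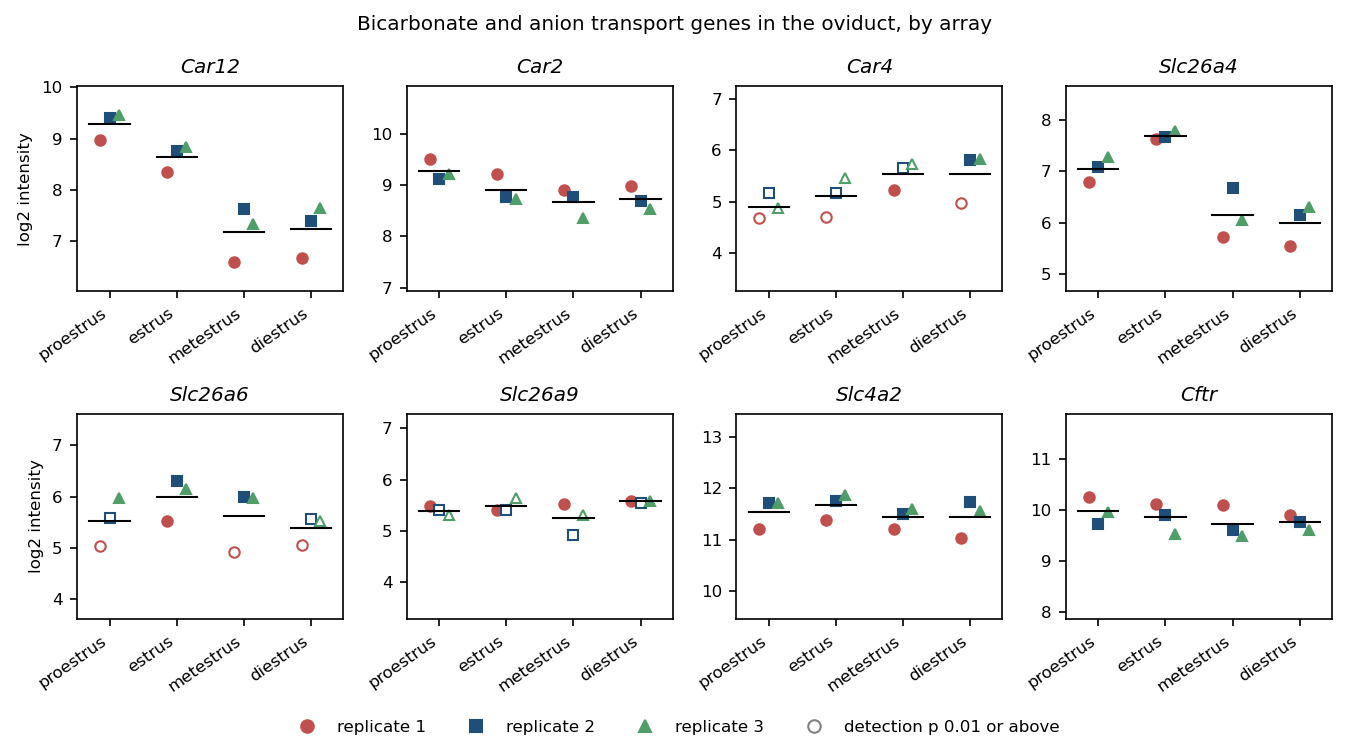
Log2 intensity (vertical axis, each panel spanning its own range) of the 8 genes on each of the 12 arrays by stage, with 1 symbol per replicate number, open symbols for detection p of 0.01 or above and a bar at the mean of 3 arrays. Car12 and Slc26a4 separate proestrus and estrus from the later stages, while the Slc4a2 and Cftr arrays overlap between stages.

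From estrus to metestrus, Car12 fell by 1.46 ± 0.30 on the log2 scale, a 2.76-fold difference (limma, adjusted p = 0.022). That comparison called 2.46% of all genes. Metestrus was 4.26-fold below proestrus (log2 difference -2.09 ± 0.30, adjusted p = 0.0016, against 5.33% of genes called). Proestrus was 4.10-fold above diestrus (2.03 ± 0.30, adjusted p = 0.0021, against 4.86%), and estrus 2.65-fold above diestrus (1.41 ± 0.30, adjusted p = 0.031, against 2.22%). All 3 replicate numbers showed each of these differences in the same direction, with 1.80 to 2.30 for proestrus against diestrus. Diestrus and metestrus differed by 0.06 ± 0.30 (95% interval -0.59 to 0.71, adjusted p = 1), in a comparison that called 0.069% of genes.

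The proestrus to estrus step of Car12 was -0.63 ± 0.30, and its adjusted p of 0.80 did not pass without a block (1.02% of genes called). It was nearly equal in the 3 replicate numbers, -0.62, -0.65 and -0.61. With the replicate number as a block the adjusted p was 0.034, where 3.06% of genes were called. The calls of metestrus against proestrus and of proestrus against diestrus held in all 24 other settings tried, with adjusted p up to 0.017 and 0.013. The 2 differences of estrus from a later stage were less firm. For metestrus against estrus the adjusted p was 0.10 without estrus replicate 2, 0.099 without estrus replicate 3, 0.06 without metestrus replicate 1, 0.051 without metestrus replicate 3 and 0.08 with only the 6 arrays of these stages. For estrus against diestrus it was 0.053 without proestrus replicate 2, 0.13 and 0.14 without estrus replicates 2 and 3, and 0.11 and 0.086 without diestrus replicates 1 and 2.

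Slc26a4, the exchanger pendrin, was highest at estrus. Its log2 intensity on replicates 1, 2 and 3 was 7.63, 7.68 and 7.79 at estrus and 6.79, 7.08 and 7.28 at proestrus. It was 5.73, 6.68 and 6.06 at metestrus and 5.54, 6.14 and 6.30 at diestrus. The estrus arrays lay above those of every other stage, and the proestrus arrays above those of metestrus and diestrus, which overlapped each other. Stage means in the order of the cycle were 7.05 ± 0.25, 7.70 ± 0.08, 6.16 ± 0.48 and 6.00 ± 0.40 (moderated F, limma, adjusted p = 0.0038).

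Slc26a4 fell 2.91-fold from estrus to metestrus (log2 difference -1.54 ± 0.25, limma, adjusted p = 0.0054). It was 3.26-fold higher at estrus than at diestrus (1.70 ± 0.25, adjusted p = 0.0036) and 2.08-fold higher at proestrus than at diestrus (1.06 ± 0.25, adjusted p = 0.034). Metestrus against proestrus gave -0.89 ± 0.25 with an adjusted p of 0.064, which became 0.0058 with the replicate block, 0.021 without metestrus replicate 2 and 0.045 without diestrus replicate 1. The proestrus to estrus step was 0.65 ± 0.25, or 0.84, 0.59 and 0.51 in replicates 1, 2 and 3, and did not pass with the block (adjusted p = 0.08) or without it (0.52). Over that step Car12 was lower at estrus by a similar amount, and the difference between the 2 genes' steps was not tested.

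Several Slc26a4 calls depended on the processing. On the deposited normalized values the adjusted p was 0.068 across the cycle, 0.055 for metestrus against estrus, 0.057 for estrus against diestrus and 0.52 for proestrus against diestrus. Without background correction all 3 differences passed but were smaller, -0.96, 1.04 and 0.59 in the same order of comparisons. Proestrus against diestrus also lost its call without proestrus replicate 2 or 3 (0.11 and 0.13), without estrus replicate 2 or 3 (0.054 each) and without diestrus replicate 1 or 2 (0.11 and 0.076).

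Markers of ovarian and egg-associated cells moved over the same stages. Of the 12 granulosa, theca and luteal genes listed, 9 were tested and, beside 5.37% of all genes, 8 passed the F test. Their summed linear intensity was 902 to 1167 at proestrus, 2593 to 3002 at estrus, 256 to 426 at metestrus and 369 to 474 at diestrus. Of the 14 oocyte and cumulus genes, 8 were tested and 7 passed, with sums of 200 to 416, 1586 to 2097, 235 to 475 and 519 to 869 in the same order. Amh, Zp1, Zp2 and Tnfaip6 were detected on 0 arrays. Both sums, like Slc26a4, were highest at estrus, as were the adipocyte and the macrophage and neutrophil sums given below. At proestrus against diestrus, where Slc26a4 was higher, 4 of the 9 ovarian genes were called higher (limma, 4.86% of all genes called). Of the 8 oocyte and cumulus genes, 4 were called lower there and 0 higher, with a median log2 difference of -0.88. Single ovarian genes differed in pattern. Of the 9, 5 were called higher at estrus than at proestrus (limma, 1.02% of all genes called). Lower at metestrus than at estrus were 7 (2.46% of all genes called). Inhba, an inhibin and activin subunit, had means of 8.03, 7.85, 5.75 and 5.95 in the order of the cycle. Cyp17a1, an androgen-forming enzyme, had 7.28, 7.07, 5.68 and 5.72. These 2 genes, named after their values were seen, were high at proestrus and estrus and low in the later stages, as Car12 was. Not all genes of the list shared this pattern. Cyp11a1 had means of 6.25, 8.71, 6.72 and 6.58, and Star had 4.72, 5.99, 5.30 and 5.29. Both, also named after their values were seen, had their lowest mean at proestrus. With the replicate block 8 ovarian and 8 oocyte and cumulus genes passed the F test, where 16.4% of all genes did. The part of these cells in the Car12 and Slc26a4 differences was not tested.

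Fewer genes of the other marker lists passed. Of the 8 adipocyte genes listed, Plin1, Fabp4 and Retn were detected on 0 arrays. Lep, named after its values were seen, had means of 7.42, 7.44, 7.58 and 7.31 in the order of the cycle. Of the 4 adipocyte genes tested, 2 passed the F test (limma, 5.37% of all genes) and 3 with the replicate block (16.4%). Their sums were 1536 to 1717 at proestrus, 2746 to 3420 at estrus, 2113 to 2620 at metestrus and 2222 to 3010 at diestrus. Beside the same shares of all genes, macrophage and neutrophil markers passed for 2 of 8, and for 5 with the block. Their sums were 2754 to 3071, 3784 to 3898, 2875 to 3461 and 3069 to 3534 in the same order. From estrus to metestrus, where Car12 and Slc26a4 fell, 2 of these 8 markers were called lower, beside 2.46% of all genes. The median log2 difference of the 8 was -0.66. Cd14 (0.17) and Adgre1 (0.14), named after their values were seen, went the other way, and the rest were lower at metestrus.

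Erythrocyte marker sums were 7450 to 11137 at proestrus, 6329 to 9217 at estrus, 3792 to 10400 at metestrus and 4352 to 5167 at diestrus. Of the 12 erythrocyte genes listed 4 were tested, while Slc4a1, Epb42 and Rhag were detected on at most 1, 0 and 2 arrays. None of the 4 tested passed the adjusted F test (limma), with 2 at an unadjusted p under 0.05. With the block 1 passed, beside 16.4% of all genes. For proestrus against diestrus the median log2 difference of the 4 markers was 0.91, with 0 called (4.86% of all genes called). All 4 had an unadjusted p under 0.05 and were called with the block (16.3% of all genes called). In that comparison the erythrocyte markers moved with Car12 and Car2, which also read higher at proestrus than at diestrus. For metestrus against proestrus the erythrocyte median was -0.22, with 0 of 4 called without or with the block. Car12 and Car2 differed by -2.09 and -0.60 there. The part of erythrocytes in the Car12 and Car2 values was not tested. Smooth muscle and endothelial markers passed the F test for 0 of 7 each, with 1 of each at an unadjusted p under 0.05. With the block Myh11 (0.037) and Plvap (0.031) passed, where 16.4% of all genes did. Plvap was also called higher at proestrus than at diestrus without it (adjusted p = 0.041). These 2 were named after their values were seen. Smooth muscle sums ran from 96900 to 105119 and endothelial sums from 2920 to 3512.

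Car2, the cytosolic carbonic anhydrase, had its highest mean at proestrus. It read 9.50, 9.11 and 9.22 at proestrus, 9.21, 8.76 and 8.74 at estrus, 8.90, 8.76 and 8.36 at metestrus and 8.99, 8.68 and 8.53 at diestrus. The proestrus arrays lay above all metestrus and diestrus arrays and overlapped those of estrus. The F test did not pass without a block (limma, adjusted p = 0.27) and passed with it (0.0089, where 16.4% of all genes were called). Proestrus exceeded diestrus by 0.54 ± 0.19, with an adjusted p of 0.15 without and 0.0065 with the block (16.3% of genes called). Metestrus minus proestrus was -0.60 ± 0.19, with 0.11 and 0.0035 (16.5% called). Each of these 2 differences had the same sign in all 3 replicate numbers. The 4 erythrocyte markers were likewise called higher at proestrus than at diestrus only with the block. For metestrus against proestrus 0 of these markers were called without or with it. The second Car2 probe read 4.40 to 4.83 over the 12 arrays and was not detected.

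Car4, anchored to the outer membrane face by a lipid, lay close to background. It was detected on 0 arrays at proestrus and estrus, 1 at metestrus and 2 at diestrus, with raw intensities of 84.6 to 113. Its log2 values were 4.68, 5.16 and 4.87 at proestrus, 4.71, 5.17 and 5.47 at estrus, 5.22, 5.65 and 5.74 at metestrus and 4.97, 5.81 and 5.82 at diestrus. Unlike Car2 and Car12, the later stages had the higher means, 5.54 each against 4.90 and 5.12. No difference passed without a block: proestrus against diestrus was -0.63 ± 0.26 (limma, adjusted p = 0.23) and metestrus against proestrus 0.63 ± 0.26 (0.22). With the block both passed, at 0.0096 (16.3% of all genes called) and 0.0095 (16.5%). The F test gave 0.41 without and 0.014 with the block (16.4% called). Car4 met the detection filter only through metestrus and diestrus arrays, so these calls compare stages without detection with stages near background. Because no proestrus or estrus array detected Car4, no fold is given for it.

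**Figure D2:**
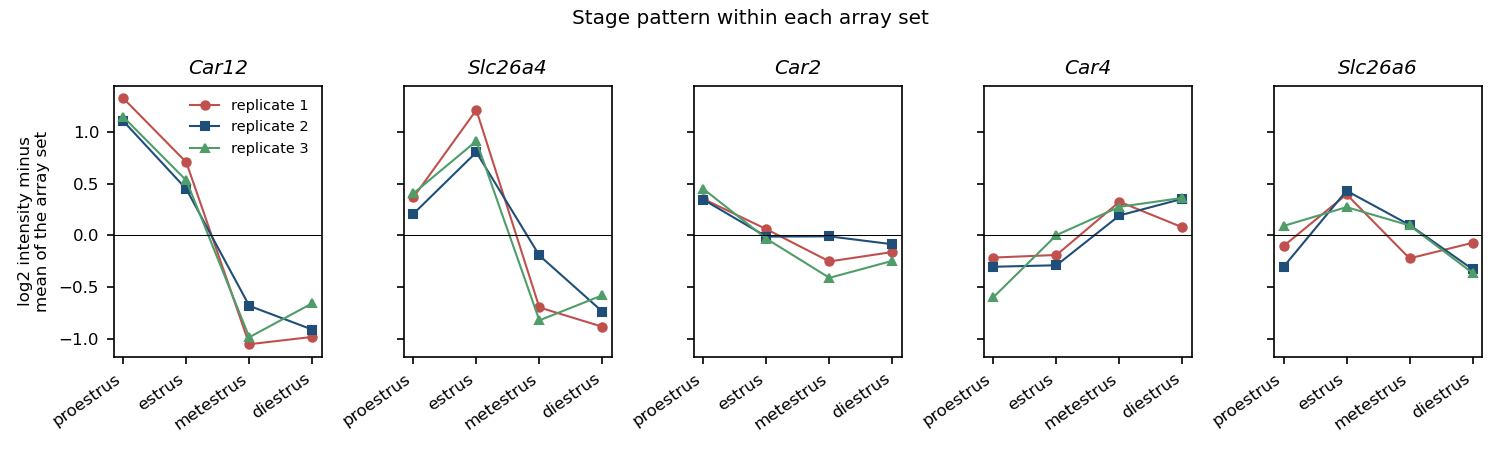
Log2 intensity of 5 genes minus the gene's mean within its array set, replicate 1 or replicates 2 and 3 together (vertical axis), by stage, with 1 line per replicate number. Car12, Slc26a4 and Car2 are above 0 at proestrus in all 3 numbers, Car4 is below 0 there, and Slc26a6 is highest at estrus in all 3.

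Slc26a6 and Slc26a9 were also near background. Slc26a6, an apical chloride and bicarbonate exchanger, was detected on 3 arrays at estrus, 2 at metestrus, 1 at proestrus and 0 at diestrus. It read 5.03, 5.58 and 5.97 at proestrus, 5.53, 6.31 and 6.15 at estrus, 4.92, 5.98 and 5.98 at metestrus and 5.07, 5.56 and 5.52 at diestrus. Within each replicate number the estrus array was the highest of the 4, but the stages overlapped when the numbers were pooled. Estrus minus diestrus was 0.62 ± 0.33, with an adjusted p of 0.57 without and 0.022 with the block (limma, 6.9% of genes called). As a bound on the means, with diestrus values raised to the lowest detected level of each array, the estrus mean was 1.45-fold higher. This bound leaves out the spread between arrays. Without the block, the 95% interval of estrus over diestrus ran from 0.94-fold to 2.52-fold, which includes no difference. The F test gave 0.80 without and 0.042 with the block, and 0.057 on replicates 2 and 3 alone.

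Slc26a9, a chloride transporter of airway and stomach epithelium, was detected on 5 arrays, the 4 of replicate 1 and diestrus replicate 3. Its stage means were 5.40 ± 0.09, 5.49 ± 0.13, 5.26 ± 0.30 and 5.58 ± 0.03, and the F test passed neither without the block (limma, adjusted p = 0.70) nor with it (0.30). The largest stage difference, diestrus minus metestrus, was 0.32 (95% interval -0.01 to 0.65). The other 3 probes read 4.45 to 5.40 on all arrays.

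Slc4a2 and Cftr were bright on every array. Slc4a2, the basolateral exchanger, read 11.22, 11.71 and 11.71 at proestrus, 11.38, 11.74 and 11.87 at estrus, 11.22, 11.50 and 11.59 at metestrus and 11.03, 11.72 and 11.56 at diestrus. Its means spanned 0.23, from 11.44 to 11.67, and all stages overlapped (moderated F, limma, adjusted p = 1 without and 0.28 with the block). The 95% interval of metestrus minus estrus, its largest difference, was -0.70 to 0.24. In all 3 replicate numbers metestrus was below estrus, by 0.17 to 0.28.

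Cftr read 10.25, 9.73 and 9.96 at proestrus, 10.12, 9.90 and 9.54 at estrus, 10.09, 9.61 and 9.49 at metestrus and 9.89, 9.77 and 9.60 at diestrus. The stages overlapped, and the means fell between 9.73 and 9.98 (moderated F, limma, adjusted p = 0.98 without and 0.39 with the block). Metestrus minus proestrus was -0.25 ± 0.20, with a 95% interval of -0.69 to 0.20. On the linear scale that interval reaches down to 0.62-fold, and the interval of estrus over diestrus for Slc4a2 reaches up to 1.62-fold, so the arrays do not show that either gene stayed level.

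**Figure D3:**
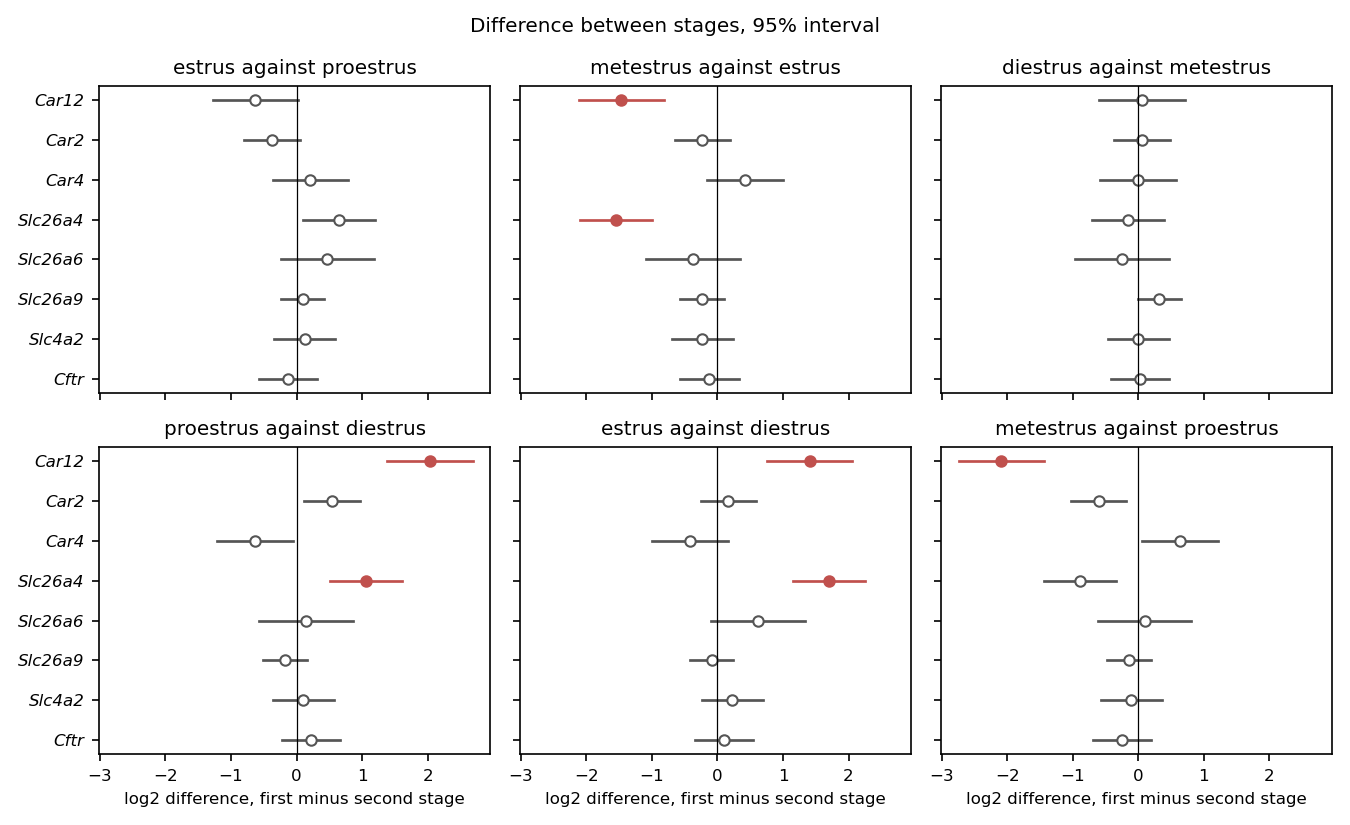
Log2 difference between the stages named above each panel, first minus second (horizontal axis), for the 8 genes, with 95% intervals from the limma fit to 12 arrays. Filled red points passed an adjusted p of 0.05, namely Car12 in 4 comparisons and Slc26a4 in 3.

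Counted over the 8 genes (limma, adjusted p), 2 were lower at metestrus than at estrus, where 2.46% of all genes were called. Higher than at diestrus were 2 at proestrus (4.86% of all genes called) and 2 at estrus (2.22%). At metestrus 1 was lower than at proestrus (5.33%). Between estrus and proestrus 0 differed (1.02%), and between diestrus and metestrus 0 (0.069%). At an unadjusted p under 0.05 these last counts were 1 and 0. The median log2 difference of the 8 was -0.23 for metestrus against estrus, where that of all genes was 0.02. It was 0.19 against -0.02 for proestrus over diestrus and 0.20 against -0.01 for estrus over diestrus. With the replicate block 5 of the 8 passed the F test (16.4% of all genes). On replicates 2 and 3 alone 3 did, Car12 (0.00037), Slc26a4 (0.0071) and Car4 (0.025), where 10.7% of genes were called. Car4 met the detection filter only through metestrus and diestrus arrays.

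After subtraction of each gene's mean within its array set, Car12 correlated over the 12 arrays with Car2 (Pearson r = 0.88) and Slc26a4 (0.82) and inversely with Car4 (-0.89). Slc26a4 had r = 0.76 with Slc4a2 and 0.70 with Slc26a6, and Slc26a9 had r between -0.28 and 0.37 with each other member. These are descriptions, since the points share stages and arrays. Car4 was detected on only 3 of the 12 arrays, 0 of them at proestrus or estrus, so its r rests mostly on values near background. Slc26a6 and Slc26a9, detected on 6 and 5 arrays, were near background too. Among all genes tested, the 3 most like Car12 were Adamts4, a matrix protease (r = 0.99), Arg1, which splits arginine into urea and ornithine (0.99), and Aqp8, a water channel (0.99). Aqp8 means were 9.82, 8.78, 6.68 and 6.73 in the order of the cycle. The 3 most like Slc26a4 were Gch1, the first enzyme of tetrahydrobiopterin synthesis (0.97), Srpx2, a secreted sushi-repeat protein (0.95), and Angptl4, an inhibitor of lipoprotein lipase (0.95). Gch1 means were 8.07, 8.70, 7.55 and 7.49, while Srpx2 did not pass the F test (limma, adjusted p = 0.67).

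Among the other carbonic anhydrases, 9 of 13 listed genes were on the array and 8 were tested. The F test passed for 2 of them, and for 5.37% of all genes. Car14, a membrane-bound enzyme with an extracellular catalytic site, had means of 8.44, 8.42, 7.66 and 7.78 (limma, adjusted p = 0.0075). Car9, of the same membrane-bound kind, had 7.47, 7.61, 6.53 and 6.94 (0.011). Both fell from estrus to metestrus, Car14 by 0.76 ± 0.14 (adjusted p = 0.015) and Car9 by 1.09 ± 0.18 (0.0073). Against proestrus, metestrus was lower for Car14 (-0.78 ± 0.14, 0.0081), Car9 (-0.94 ± 0.18, 0.012) and the cytosolic Car13 (-0.75 ± 0.19, 0.041), the last named after its values were seen. Car11 and Car3 had values in the other direction for metestrus minus proestrus, 0.68 ± 0.20 (adjusted p = 0.07) and 0.49 ± 0.28 (0.42), and are named after their values were seen. Car3 is also one of the adipocyte markers. With the replicate block 6 of the 8 passed the F test, Car11 (0.0031) and Car3 (0.0032) among them, where 16.4% of all genes did. The median of the 8 from estrus to metestrus was -0.55, beside 0.02 for all genes.

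No other group of the pathway had a gene past the adjusted F test without a block. Of 17 other Slc4 and Slc26 transporters, 14 were on the array and only Slc4a8, a sodium-driven exchanger (limma, adjusted p = 0.90), and Slc4a3, a chloride and bicarbonate exchanger (0.98), were tested, and 0 of them had an unadjusted p under 0.05. Of 19 sodium and proton exchangers and proton pump subunits, 8 were tested and 0 passed (limma, 0 also at an unadjusted p under 0.05), the lowest being the pump subunit Atp6v1b1 (0.44) and the proton and potassium pump Atp12a (0.80). Of 21 regulators and partners of Cftr and the exchangers, 15 were tested and 0 passed (limma), with 3 at an unadjusted p under 0.05 and 3 past the F test with the replicate block, where 16.4% of all genes passed. The scaffolds Slc9a3r2 and Slc9a3r1, which bind the tail of Cftr, came closest (0.089 and 0.11). From proestrus to metestrus Slc9a3r2 rose by 0.54 ± 0.13 (adjusted p = 0.03) and Slc9a3r1 fell by 0.56 ± 0.14 (0.046).

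**Figure D4:**
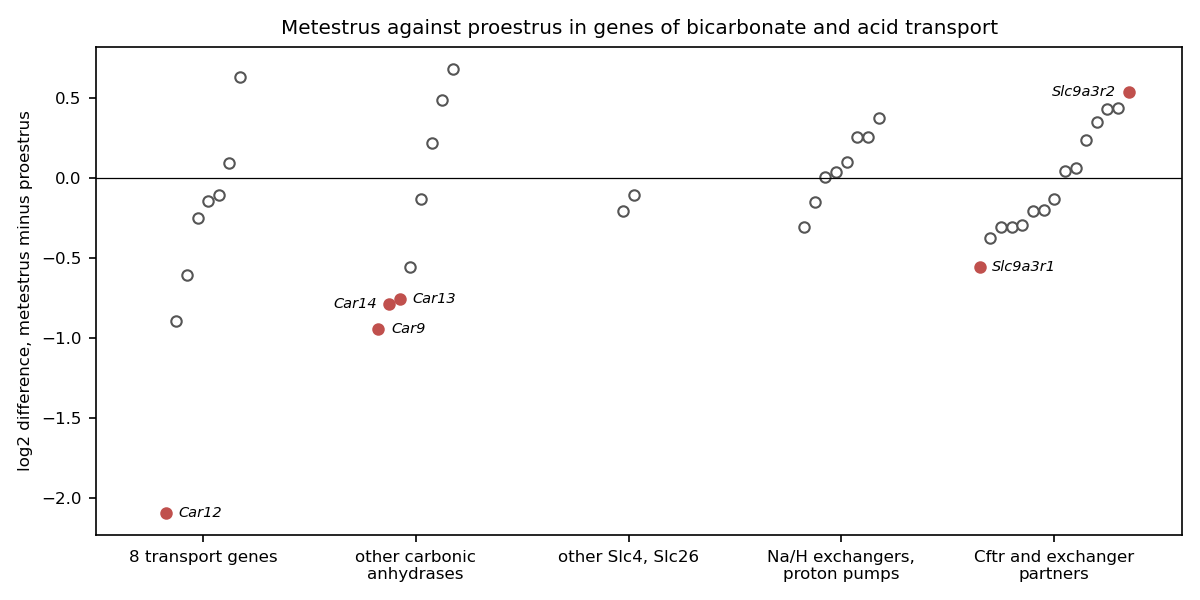
Log2 difference of metestrus minus proestrus (vertical axis) for each tested gene of the 5 groups, ordered by value within a group. Filled red points passed an adjusted p of 0.05 (limma). Car12 lies lowest at -2.09, 3 other carbonic anhydrases that passed lie between -0.94 and -0.75, and Car11 (0.68) and Car3 (0.49), which did not pass, lie above 0.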

How the data were processed

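Oviduct RNA from 4 stages was labelled with biotin and hybridised to bead arrays, 3 per stage. Per the file headers, the deposited table lists raw intensity and a detection p-value, probe by probe, for every array. A second deposited table holds normalized intensity values of the authors on a linear scale, with medians of 46.7 to 46.8 on replicate 1 and 23.4 on replicates 2 and 3. The sources used here name no software for it. It served as an alternative.

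Raw intensities were corrected with normexp guided by detection p, quantile normalized over all arrays and logged (base 2) after adding 16, with neqc of limma 3.58.1 under R 4.3.3. Probes with detection p under 0.01 on at least 3 arrays were kept, 14778 in all. A gene took its kept probe with the highest mean, and 1719 probes without a symbol were left out. One mean per stage was fitted to 10144 genes (8 residual degrees of freedom), errors were moderated with eBayes, and p-values of the F test and of 6 stage contrasts were adjusted over all genes (Benjamini-Hochberg, 0.05). For a gene undetected on all arrays of one stage and detected on all arrays of the other, the bound raised its intensities there to the lowest detected level of each array. The number of arrays limits the precision.

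After removal of stage means, arrays of the same number correlated at 0.62 to 0.81 (number 1), 0.26 to 0.51 (number 2) and 0.36 to 0.55 (number 3). From the data alone, the numbers were therefore also fitted as a block, while the main fit had none. Numbers 2 and 3 correlated with each other about as much as within a number (0.22 to 0.54). Numbers 1 and 2 correlated at -0.64 to -0.28 and numbers 1 and 3 at -0.69 to -0.47. These values set replicate 1 apart from the other arrays and do not separate numbers 2 and 3. Blocked values stand beside results of the 8 genes, and counts of the gene lists in the F test, whose call they change.

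The members and gene lists were chosen with earlier results of these data known. The 8 members were named whatever their result, with up to 4 genes per pathway list that passed the F test or the 2 of lowest p where none did, and the 3 genes most correlated with each member that passed. Alternatives were the replicate block, an array-set factor, replicates 2 and 3 alone, the deposited values, other background, offset, normalization, filter and probe choices, the compared arrays alone, and leaving out each array.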

Additional observations from a re-analysis of the deposited data

How the results depend on the processing

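The number of the 8 genes called across the cycle (2) was 5 with the replicate block or with the array set as a factor and 1 on the deposited values. For estrus against proestrus (0) it was 1 with the replicate block and 1 with the array-set factor. For proestrus against diestrus (2) and metestrus against proestrus (1) it was 4 with the replicate block, 4 with the array-set factor and 4 on replicates 2 and 3 alone, and the deposited values gave 1 for proestrus against diestrus. For metestrus against estrus (2) it was 1 on the deposited values and 1 with only the 6 arrays compared, and for estrus against diestrus (2) it was 1 on the deposited values and 3 with the replicate block, with the array-set factor and on replicates 2 and 3 alone. Leaving out each array in turn gave 1 to 2 for metestrus against estrus, proestrus against diestrus, estrus against diestrus and metestrus against proestrus. For diestrus against metestrus the count was 0 in all 24 alternatives. Over all genes, calls rose with the block from 5.37% to 16.4% across the cycle and from 1.02% to 3.06% for estrus against proestrus. For proestrus against diestrus they rose from 4.86% to 16.3%, and for metestrus against proestrus from 5.33% to 16.5%. For estrus against diestrus they rose from 2.22% to 6.9%. Shares with the array-set factor, and for stage comparisons on replicates 2 and 3 alone, were not counted. Of 514 alternative values of single genes, 465 kept their side of the threshold, 20 lost a call and 29 gained one. Some of these values are adjusted F p-values, which have no direction. Of those that are log2 differences, 0 changed direction, but a block or array-set factor cannot change a log2 difference in this balanced design. The replicate block changed no other call of the 8 genes than those given beside the results. Car4, Slc26a6 and Slc26a9 lie near background, where differences are compressed, and requiring detection on all 12 arrays left only 5 of the 8 genes.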
